A study of Mus musculus with 24 samples.

Results

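Cells purified by CD11c from Myd88 knockout mice treated with an antibody to PD-1 were set against cells purified alike from wild-type mice given the same antibody. The comparison covers 6 of the 24 RNA-seq libraries of the study, the 3 labelled knockout with anti-PD-1 and the 3 labelled wild type with anti-PD-1. Genes were taken by name from the deposited table, leaving out 4 Y-linked genes and their 4 X-linked counterparts, which leaves 12759 genes. Of these, 12401 had a mean of at least 10 in the 6 libraries and were tested. The knockout group came from C57BL/6 mice labelled Myd88 knockout and the wild-type group from C57BL/6 mice. Per the labels, all were females of 6 to 8 weeks that carried MC38 colon carcinoma under the skin, from an injection of 1000000 cells. Treatment began 7 to 10 days later at a tumour volume of 100 mm3 and ran for 2 to 3 weeks, with 200 ug of anti-PD-1 per mouse 2 times a week. Cells were purified from mesenteric lymph nodes with beads against CD11c. Control IgG at the same dose replaced the antibody in 3 knockout and 3 wild-type libraries, which are used below for comparison. The labels give neither the design of the knockout allele nor whether each library is 1 mouse, so p-values may measure technical spread only.

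Myd88 is the adaptor that carries signals from most Toll-like receptors and from the receptors for IL-1, IL-18 and IL-33 to NF-kB. In dendritic cells these signals drive cytokine release, costimulation and migration, and dendritic cells in turn activate T cells. PD-1 is an inhibitory receptor of activated T cells, and antibodies that block it release those cells. CD11c, the product of Itgax, is carried by dendritic cells but also by many macrophages and by some activated T and NK cells.

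Values below are normalised read counts, given in the order of replicates 1, 2 and 3, and are not corrected for gene length. Myd88 itself (chromosome 9, bases 119335934 to 119341411 of build GRCm38) had 1459, 884 and 1837 in knockout libraries, against 2027, 1852 and 1842 in wild-type libraries. Replicate 3 of the knockout reached the wild-type level, and the log2 difference of -0.51 ± 0.27 (SE) did not pass the test in limma (adjusted p = 0.255). Gene-wide counts cannot check a deletion of some exons, and libraries are called knockout here by their label. The 4 Y-linked genes summed to 3297 to 4511 in knockout libraries, against 2.69 to 10.4 in wild-type libraries, although the labels give all mice as female. Genotype and this difference cannot be told apart in any result below. Reads on listed genes numbered 28937315 to 36421522 in knockout libraries and 30380634 to 33336776 in wild-type libraries.

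The knockout libraries lay far apart from each other. Their biological coefficient of variation was 0.376, against 0.058 in the wild-type group. The range among the replicates exceeded 2-fold for 4159 genes in knockout libraries and for 291 genes in wild-type libraries. Knockout replicates 1 and 3 also followed transcript length. Relative to the wild-type mean, the median log2 deviation of the shortest transcripts (under 2197 bases) was 0.50, -0.05 and 0.73 in knockout replicates 1, 2 and 3. For the longest transcripts (over 4787 bases) it was -0.47, 0.06 and -0.56. Wild-type libraries stayed within -0.08 and 0.06 in both classes. The counts and the named genes below were also computed after taking out each library's trend over transcript length and GC content. Beyond that, the part of this trend in the results was not tested.

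**Figure D1:**
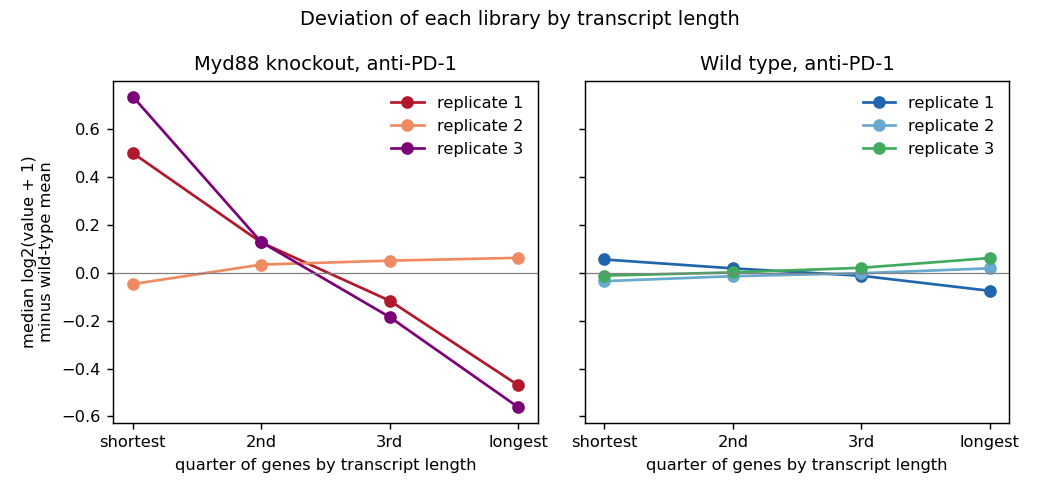
Median deviation of each library from the wild-type mean, on the log2(value + 1) scale, for 4 equal groups of genes ordered by transcript length, in knockout (left) and wild-type (right) libraries. Knockout replicates 1 and 3 run from 0.50 and 0.73 at the shortest transcripts to -0.47 and -0.56 at the longest, while knockout replicate 2 and the wild-type libraries stay near 0.

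Under anti-PD-1, 171 genes were higher in knockout than in wild-type cells and 617 were lower at an adjusted p below 0.05 (limma on log2(value + 1), Benjamini and Hochberg over all genes). These are 1.38% and 4.98% of the genes tested, and in all 788 the knockout and wild-type libraries did not overlap. Of all genes tested, 17.7% had all knockout libraries above all wild-type libraries and 16.9% had them all below. Unadjusted p-values below 0.05 were found for 3055 genes. The count rests on the spread of few libraries. It was 231 to 242 without any 1 of the wild-type libraries, 357 without knockout replicate 1, 6839 without knockout replicate 2 and 981 without knockout replicate 3. With the length and GC trend removed, 933 genes (7.53%) were higher and 809 (6.53%) lower, and the median difference of all genes was 0.12 in place of 0.01.

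A second, stricter description asked which genes hold in each knockout library by itself. A gene held when its nearest pair of a knockout and a wild-type library differed at least 2-fold, with all knockout libraries on the same side. By this rule 50 genes (0.403% of those tested) were higher and 431 (3.48%) lower in every knockout library, and 47 and 400 of them also passed the test. Taken 1 library at a time, knockout replicate 3 had 1618 genes beyond 2-fold above all wild-type libraries and 1782 below. Replicate 1 had 412 above and 1158 below, and replicate 2 had 111 above and 716 below. Of those in replicate 3, 1226 above and 878 below were past 2-fold in that library alone, against 20 and 147 for replicate 1 and 39 and 134 for replicate 2. Just inside the limit lay Cxcl2, with a nearest gap of 1.01 on the log2 scale, and just outside it Chil4, at 0.99. On the lower side Gbp9 held, with a gap of 1.004, and Mx1 did not, with 0.996. Removing the length and GC trend kept 42 of the 50 higher and 384 of the 431 lower genes beyond the limit.

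**Figure D2:**
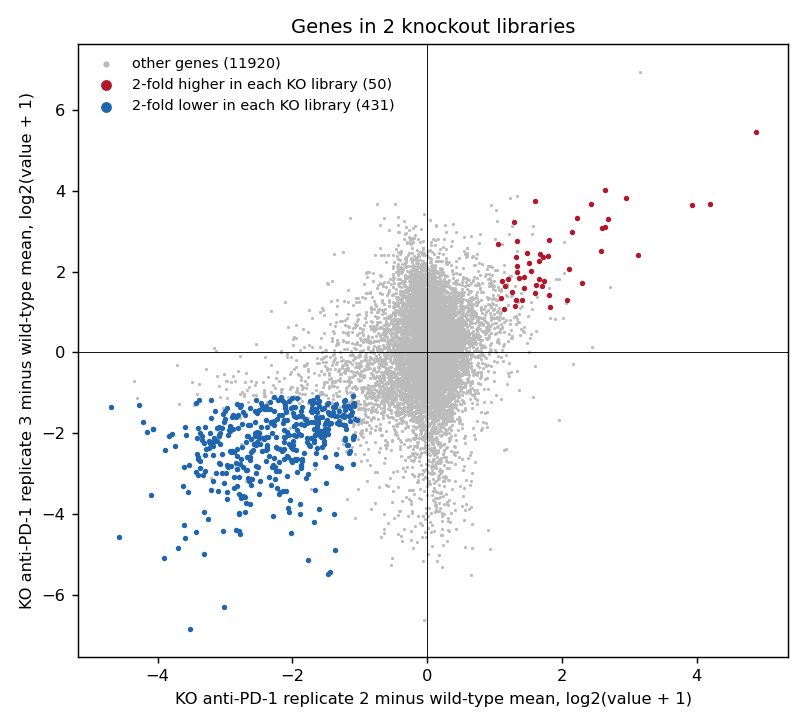
Each point is a gene, placed by its difference from the wild-type mean in knockout replicate 2 (horizontal) and in knockout replicate 3 (vertical), both on the log2(value + 1) scale. Grey genes spread along the vertical axis, past 2-fold in replicate 3 but not in replicate 2, while the 50 red and 431 blue genes moved in every knockout library.

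The identity of the sorted cells was checked on marker genes. Itgax, the gene of the sorted antigen, had 33061, 37827 and 34215 in knockout libraries, against 25164, 25427 and 25149 in wild-type libraries. All knockout libraries were higher, by 0.47 ± 0.15 on the log2 scale, and the difference did not pass (adjusted p = 0.125). Flt3 and Zbtb46, which define conventional dendritic cells, were low in both genotypes and lower in knockout cells. Flt3, the growth factor receptor of that lineage, had 16.0, 15.2 and 33.3 in knockout libraries and 85.2, 102 and 86.1 in wild-type libraries (-2.12 ± 0.34, adjusted p = 0.0168). For Zbtb46, a transcription factor of the same lineage, these were 192, 210.1 and 224 in knockout and 390.3, 393 and 434 in wild-type libraries (-0.96 ± 0.14, adjusted p = 0.0125). The macrophage and monocyte product Lyz2 had 220040.3 to 365597 in knockout libraries, against 175431 to 183535 in wild-type libraries. Chil3, a chitinase-like protein of alternatively activated and lung macrophages, had 1340794 to 2191456 in knockout libraries, against 825401 to 872984 in wild-type libraries. Neither passed (0.72 ± 0.26, adjusted p = 0.166 for Lyz2 and 1.09 ± 0.30, adjusted p = 0.0914 for Chil3), though no libraries of the genotypes overlapped. The median log2 difference of 19 macrophage and monocyte genes was -0.09, and 0.05 with the length and GC trend removed. The sum over that list, in which Lyz2 weighs most, was higher in every knockout library. It was 366469 to 580690 in knockout libraries, against 339242 to 358398 in wild-type libraries. Of the 19 genes, 1 rose and none fell in limma, while DESeq2 gave 3 higher and 1 lower. Among the 19, Cd68 was higher (0.86 ± 0.22, adjusted p = 0.0804) and Ly6c2 lower (-0.89 ± 0.22, adjusted p = 0.0716) in every knockout library, both without passing. The population thus held abundant transcripts that are not specific to dendritic cells, in both genotypes.

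Transcripts of T cells fell together. Of 25 T cell markers tested, 19 fell in knockout cells, none rose, and all 19 held 2-fold in every knockout library. The median log2 difference was -2.28, against 0.01 for all genes. Summed over the list, levels were 3221 to 5593 in knockout libraries and 17233 to 17685 in wild-type libraries, and no marker was at 0 in a knockout library. Cd3e, part of the CD3 complex that relays antigen receptor signals, had 114, 59.9 and 119.5 in knockout libraries, against 574, 571 and 558 in wild-type libraries. Cd8a, the coreceptor of cytotoxic T cells and a marker of one dendritic cell subset, had 638, 562 and 712 in knockout libraries, against 4810.0, 4699 and 4832 in wild-type libraries. Each knockout library was below every wild-type library by several fold, with log2 differences of -2.59 ± 0.28, adjusted p = 0.00450 for Cd3e and -2.91 ± 0.13, adjusted p = 0.000651 for Cd8a. The T lineage factors Tcf7 (-2.77 ± 0.17) and Bcl11b (-2.92 ± 0.17), the surface receptor Cd6 (-3.23 ± 0.20) and the regulatory T cell factor Foxp3 were among the 19. Leaving out any 1 of the wild-type libraries left 12 markers past the test, and leaving out knockout replicate 1 left 13. No gene of this list, nor of the cytotoxic, mast cell and both interferon lists below, was higher in edgeR, in DESeq2 or at an unadjusted p below 0.05. In bulk RNA, fewer cells of a type and less RNA per cell cannot be told apart, here or in the lists that follow.

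Cytotoxic and NK cell transcripts fell as well. Of 12 such genes, 10 fell and all 10 held 2-fold in each knockout library, with a median of -2.68. Gzmb, the granule protease that kills target cells (chromosome 14, bases 56258838 to 56262260), had 927, 801 and 694 in knockout libraries, against 7405, 7311 and 7543 in wild-type libraries. That is 9.19-fold lower, with little spread on either side (-3.21 ± 0.14, adjusted p = 0.000651). Eomes, a transcription factor of effector lymphocytes, had 70.2, 97.4 and 102 in knockout libraries, against 808, 804 and 825 in wild-type libraries (-3.18 ± 0.18, adjusted p = 0.000853). Prf1, the pore-forming partner of granzymes, was 7.97-fold lower, and Ifng, the gene of interferon-gamma, 5.98-fold lower. Ifng had 116, 79.2 and 164 in knockout libraries, against 744, 676 and 731 in wild-type libraries (-2.63 ± 0.27, adjusted p = 0.00386). Leaving out a wild-type library left 5 of the 12 genes past the test, and leaving out knockout replicate 1 left 6.

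The 15 genes with the largest distance between the nearest knockout and wild-type library on the lower side include several known from lymphocytes. Gzmb, Eomes and the interferon-induced Iigp1 are among them. Il2rb, the receptor chain through which T and NK cells receive IL-2 and IL-15, had 657, 834 and 525 in knockout libraries, against 6383, 6630.0 and 6628 in wild-type libraries (-3.31 ± 0.19, adjusted p = 0.000853). Ikzf3, a lymphoid transcription factor, was 11.1-fold lower, Zfp683, a factor of tissue-resident lymphocytes, 13.9-fold and the death ligand gene Fasl 11.2-fold. Trat1, an adaptor of the T cell receptor complex, differed by -4.77 ± 0.77, adjusted p = 0.0171 but spread widely, with 29.8, 121 and 11.5 in knockout libraries, against 934, 996 and 1029 in wild-type libraries. Tnfsf11, the ligand RANKL, had 14.9, 9.13 and 11.5 in knockout libraries, against 133, 127 and 113 in wild-type libraries (-3.31 ± 0.25, adjusted p = 0.00155). Receptors for metabolites were also in this group. Sucnr1, the succinate receptor, had 4.25, 2.03 and 3.45 in knockout libraries, against 48.5, 49.0 and 55.0 in wild-type libraries, and Gpr174, a receptor for lysophosphatidylserine, was 13.3-fold lower. Gprin3 had the widest gap of these 15, with 9.57, 22.3 and 9.19 in knockout libraries, against 251, 395 and 427 in wild-type libraries (-4.68 ± 0.40, adjusted p = 0.00214). Sytl2, which tethers secretory granules, Ppp1r16b, a phosphatase subunit, and Apol7e were 12.4-fold, 9.65-fold and 14.9-fold lower.

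**Figure D3:**
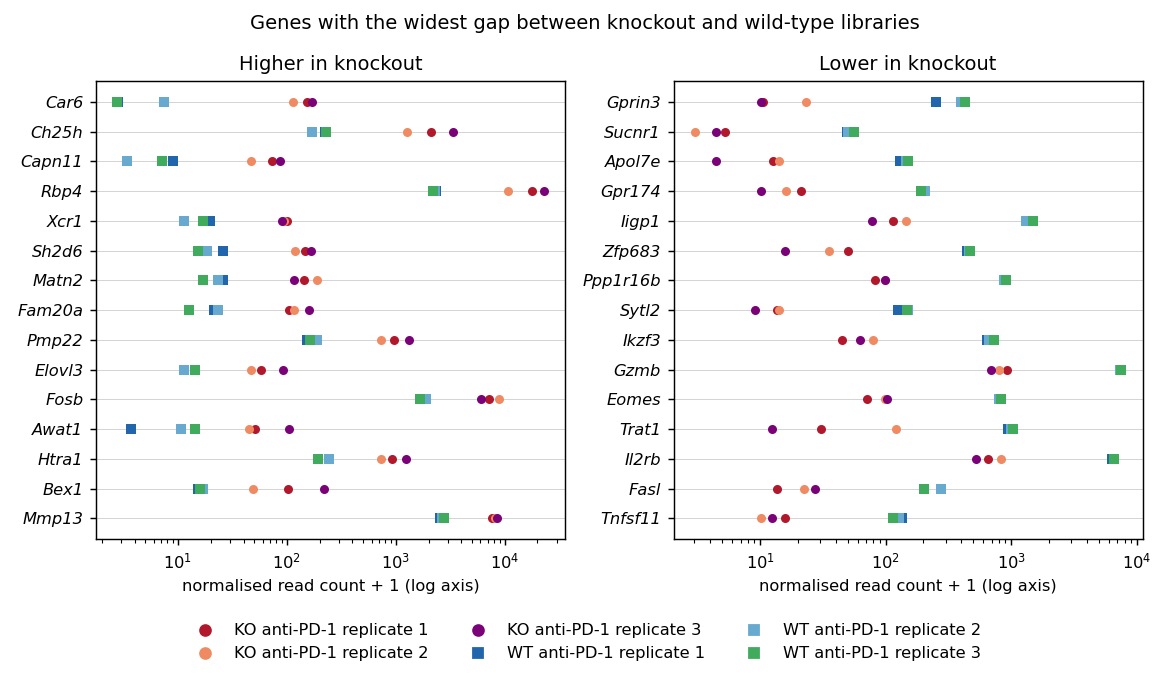
Normalised read counts plus 1, on a log axis, of the 15 genes with the widest gap in each direction, in 3 knockout libraries (circles) and 3 wild-type libraries (squares). No circle overlaps a square in any of the genes, and the circles of Trat1 and Bex1 spread more than those of Mmp13 or Gzmb.

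Mast cell and basophil genes fell in part. Of 9 tested, 6 fell, all of them 2-fold in every knockout library, and the median was -2.00. The list summed to 659.7 to 1115 in knockout libraries, against 3869 to 3997 in wild-type libraries. Gata2, a transcription factor of the lineage, had 190.4, 175 and 188 in knockout libraries, against 766, 728 and 735 in wild-type libraries (-2.00 ± 0.13, adjusted p = 0.000971). Ms4a2 and Fcer1a, chains of the high-affinity IgE receptor, were 7.21-fold and 5.78-fold lower, and Hdc, which makes histamine, 3.98-fold. Il1rl1, the receptor for IL-33 and also a mast cell and lymphocyte gene, had 60.6, 62.9 and 59.8 in knockout libraries, against 414, 470.1 and 472 in wild-type libraries (-2.86 ± 0.15, adjusted p = 0.000697). Of 11 neutrophil genes, 4 fell, beside 4.98% of all genes tested. They included the chemokine receptor Cxcr2 (-2.16 ± 0.25, adjusted p = 0.00547) and the growth factor receptor Csf3r (-1.04 ± 0.15, adjusted p = 0.0125). The summed level of the whole neutrophil list overlapped between the genotypes, at 5366 to 6161 in knockout libraries, against 6106 to 6385 in wild-type libraries. Among the neutrophil genes, 1 was left past the test without any 1 of the wild-type libraries or without knockout replicate 1.

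Genes induced by interferon-gamma fell as a group too. Of 20 tested, 15 fell and none rose, 6 of them held 2-fold, and the median was -1.36. Their sum was 16750.1 to 20714 in knockout libraries, against 40945 to 41989.7 in wild-type libraries, with all knockout libraries lower. The group holds the guanylate-binding proteins and immunity-related GTPases, which attack vacuoles that shelter microbes inside cells. The promoters of 4 of them are shown because the factors that answer interferons bind a known element there. Each window holds 250 bases before and 50 after the annotated start (RefSeq, GRCm38.p6), 5′ to 3′ on the gene's strand, and capitals mark the core of the interferon response element on either strand, that is GAAA, then 2 bases of any kind, then GAAA. Gbp2 lies on the plus strand at chr3:142620413-142620712, Irgm1 on the minus strand at chr11:48871371-48871670, Igtp on the plus strand at chr11:58199306-58199605 and Tgtp1 on the minus strand at chr11:48992197-48992496.
Gbp2: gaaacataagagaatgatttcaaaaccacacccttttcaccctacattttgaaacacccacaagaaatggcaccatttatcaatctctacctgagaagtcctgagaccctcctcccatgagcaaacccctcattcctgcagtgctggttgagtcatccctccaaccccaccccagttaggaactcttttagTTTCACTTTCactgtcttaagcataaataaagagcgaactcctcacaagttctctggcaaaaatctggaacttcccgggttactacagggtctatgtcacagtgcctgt
Irgm1: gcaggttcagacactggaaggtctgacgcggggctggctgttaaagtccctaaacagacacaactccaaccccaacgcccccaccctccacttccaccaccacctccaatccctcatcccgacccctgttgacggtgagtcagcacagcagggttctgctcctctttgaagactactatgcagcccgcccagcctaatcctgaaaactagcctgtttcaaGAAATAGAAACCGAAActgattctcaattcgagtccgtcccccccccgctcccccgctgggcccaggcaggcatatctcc
Igtp: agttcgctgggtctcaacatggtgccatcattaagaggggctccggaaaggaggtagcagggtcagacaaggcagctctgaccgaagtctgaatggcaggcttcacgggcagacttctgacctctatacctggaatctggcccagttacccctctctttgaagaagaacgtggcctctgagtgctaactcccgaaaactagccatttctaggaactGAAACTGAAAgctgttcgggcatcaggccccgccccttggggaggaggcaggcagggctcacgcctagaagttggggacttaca
Tgtp1: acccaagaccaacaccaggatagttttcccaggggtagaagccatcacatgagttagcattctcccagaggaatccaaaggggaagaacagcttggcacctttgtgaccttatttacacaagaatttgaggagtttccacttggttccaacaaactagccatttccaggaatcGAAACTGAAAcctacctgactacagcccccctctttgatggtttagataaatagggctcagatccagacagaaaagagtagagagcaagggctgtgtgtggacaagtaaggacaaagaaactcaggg

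The core begins 59 bases before the start in Gbp2, 34 in Igtp and 77 in Tgtp1, and Irgm1 has 2 overlapping copies from 30 bases before it. Of the 15 genes that fell, 12 matched a window by symbol, and 11 of these held the core. It was present in 3.96% of the 9807 tested genes with a window, and the list was made of genes known to answer interferon. A match is a description of letters, not a bound site.

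Gbp2 had 4796, 4119 and 3849 in knockout libraries, against 9069, 9241 and 9796 in wild-type libraries (-1.14 ± 0.13, adjusted p = 0.00540). Irgm1 had 1630.4, 1692 and 1290.4 in knockout libraries, against 3345, 3305 and 3378 in wild-type libraries (-1.13 ± 0.14, adjusted p = 0.00744). Igtp had 652, 478 and 526 in knockout libraries, against 1359, 1290.5 and 1317 in wild-type libraries (-1.27 ± 0.16, adjusted p = 0.00631). Irgm1, Igtp and Irf1 were named after their values were seen, and in each every knockout library was below every wild-type library. Tgtp1 had 39.4, 39.6 and 16.1 in knockout libraries, against 258, 263 and 268 in wild-type libraries (-3.12 ± 0.36, adjusted p = 0.00554), and shares sequence with Tgtp2, so the counts of these genes are uncertain. Iigp1, another of these GTPases, was 12.4-fold lower, with 113, 143 and 77.0 in knockout libraries, against 1326, 1306 and 1481 in wild-type libraries (-3.66 ± 0.24, adjusted p = 0.00109). Gbp4 was 4.75-fold lower (-2.26 ± 0.16, adjusted p = 0.00141). The transcription factor Irf1 (-0.97 ± 0.13, adjusted p = 0.00851) and the chemokine Cxcl10 (-1.44 ± 0.26, adjusted p = 0.0258), which draws T cells, fell as well. Without any 1 of the wild-type libraries 3 to 5 of the 20 genes passed, without knockout replicate 1, 10 did, and with the length and GC trend removed 15 did. The fall stands beside that of Ifng itself and of the T and NK cell lists, and their part in it was not tested.

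Part of the type I interferon list, genes that answer interferons alpha and beta, also fell. Of 36 genes, 11 fell and none rose, with a median of -0.57, and 2 genes, Isg20 and Ifit2, held 2-fold in every knockout library. Isg20, a nuclease active against RNA viruses, had 62.7, 37.6 and 56.3 in knockout libraries, against 198, 223 and 159.7 in wild-type libraries (-1.89 ± 0.25, adjusted p = 0.00931). Herc6, Oasl2 and Oas2 fell by less than 2-fold, at -0.86 ± 0.12, -0.72 ± 0.12 and -0.81 ± 0.13. The sum over the list was 71645, 48847 and 99107 in knockout libraries, against 72197 to 75500.1 in wild-type libraries. Replicates 1 and 2 of the knockout thus lay below all wild-type libraries, replicate 1 narrowly, and replicate 3 lay above them. Among genes with a window, the interferon core was found in 3 of 8 that fell and in 11 of 16 that did not pass. When any 1 of the wild-type libraries was left out at most 1 gene passed, and without knockout replicate 1, 3 did. Without knockout replicate 2, 22 fell and 3 rose, and with the trend removed 15 fell and 1 rose.

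Of 36 Toll and IL-1 receptor signalling genes, the receptors and adaptors of the Myd88 pathway itself, 1 rose and 4 fell, beside 1.38% and 4.98% of all genes tested. With the trend removed 4 rose and 6 fell, and in DESeq2 3 rose and 6 fell. The median difference was -0.14. The 4 that fell were Tlr11, a sensor of microbial profilin, Il1rl1, and both chains of the IL-18 receptor, Il18r1 and Il18rap. Tlr11 had 39.4, 41.6 and 35.6 in knockout libraries, against 152, 196 and 184 in wild-type libraries (-2.15 ± 0.19, adjusted p = 0.00214), and Il18rap, also an NK and T cell gene, was 4.04-fold lower (-2.02 ± 0.20, adjusted p = 0.00334). Cd14, which presents lipopolysaccharide to Tlr4, rose, with 5918, 4650.2 and 6327 in knockout libraries, against 2859, 2811 and 2656 in wild-type libraries (1.01 ± 0.15, adjusted p = 0.0133). Tlr2, a receptor for bacterial lipoproteins, differed by 0.13 ± 0.11 (adjusted p = 0.423). Tlr9, the sensor of bacterial DNA, had 53.2, 234 and 27.6 in knockout libraries, against 385, 455 and 419 in wild-type libraries. All knockout values of Tlr9 were lower, but they spread so far that the difference of -2.55 ± 0.73 did not pass (adjusted p = 0.104). Cd14 did not pass without any 1 of the wild-type libraries or without knockout replicate 1, and without knockout replicate 2, 4 genes of the list were higher and 13 lower.

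NF-kB and inflammatory target genes went in both directions. Of 29 tested, 3 rose and 6 fell in limma, beside 1.38% and 4.98% of all genes tested. The median log2 difference was -0.22. With the length and GC trend removed it was -0.47, with 3 higher and 8 lower, and DESeq2 gave 4 higher and 10 lower. The 3 that rose in limma were the cytokine Il6 and the neutrophil-drawing chemokines Cxcl1 and Cxcl2. Il6 had 1831, 1627 and 1447 in knockout libraries, against 808, 782 and 799 in wild-type libraries (1.03 ± 0.14, adjusted p = 0.00835). Cxcl1 had 748, 542 and 506 in knockout libraries, against 213, 184 and 217 in wild-type libraries (1.53 ± 0.19, adjusted p = 0.00744), and Cxcl2 had 7802, 6486 and 6274 in knockout libraries, against 3117, 2997 and 2772 in wild-type libraries (1.21 ± 0.14, adjusted p = 0.00492). In all 3 genes every knockout library was above every wild-type library. The 6 that fell in limma were Csf2, Nos2, Il12b, Il23a, Nfkb2 and Traf1. Csf2, the gene of GM-CSF and a product of T cells, had 24.5, 19.3 and 33.3 in knockout libraries, against 214, 214 and 208 in wild-type libraries (-3.03 ± 0.24, adjusted p = 0.00174). Il12b, the shared subunit of IL-12 and IL-23, had 8.51, 7.10 and 2.30 in knockout libraries, against 40.4, 37.0 and 27.5 in wild-type libraries (-2.49 ± 0.47, adjusted p = 0.0306), at a low level in both. Nos2, which makes nitric oxide, was 2.53-fold lower (-1.33 ± 0.16, adjusted p = 0.00566). Without any 1 of the wild-type libraries 1 gene of the list was higher and 1 lower, without knockout replicate 1, 3 were higher and 2 lower, and without knockout replicate 2, 7 were higher and 14 lower.

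Genes that dendritic cells switch on when they mature and migrate fell in part. Of 20 migratory dendritic cell genes, 9 fell and none rose (limma and edgeR, with 2 higher in DESeq2 and at an unadjusted p below 0.05), with a median of -1.001, and 4 held 2-fold. Cacnb3, a calcium channel subunit, had 1095, 1126 and 1073 in knockout libraries, against 3235, 2941 and 2779 in wild-type libraries (-1.44 ± 0.12, adjusted p = 0.00204). Fscn1, the actin-bundling protein of dendrites, fell too, as did Adam23 (-2.34 ± 0.21), Serpinb6b (-2.21 ± 0.21) and Arc (-1.59 ± 0.19). Ccr7, the receptor that guides dendritic cells to lymph nodes, had 2074, 1497 and 3111 in knockout libraries, against 4678, 4448 and 4514 in wild-type libraries. No libraries overlapped, but the difference of -1.09 ± 0.26 missed the threshold (adjusted p = 0.0674). The sum over the list, in which a few abundant genes weigh most, went the other way in knockout replicates 1 and 3. It was 175296, 99625 and 261658 in knockout libraries, against 121668 to 129330.3 in wild-type libraries. Of 10 core genes of conventional dendritic cells 5 fell, among them Dpp4 (-1.92 ± 0.17, adjusted p = 0.00214), a surface peptidase, and Spib (-1.63 ± 0.28, adjusted p = 0.0212). None of the 10 rose in limma or edgeR, and 1 was higher in DESeq2, at an unadjusted p below 0.05 and with the trend removed. The median log2 difference of the 10 was -0.98. Their sum, in which abundant genes weigh more, was nevertheless higher in every knockout library, at 49305 to 51077, against 40583 to 40867 in wild-type libraries. Without any 1 of the wild-type libraries 3 to 4 migratory genes and 1 core gene passed, and without knockout replicate 1, 4 and 1 did.

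Few antigen presentation genes passed. Of 12 class II genes 1 fell, H2-Oa, an inhibitor of peptide loading that B cells also carry (-1.27 ± 0.23, adjusted p = 0.0254). Over all genes tested 4.98% fell. None of 23 class I genes passed in limma or edgeR, while 2 were lower at an unadjusted p below 0.05 and DESeq2 called 2 lower. Without knockout replicate 2, 5 class I genes rose and 3 fell. Class II genes summed to 308806 to 559284 in knockout libraries, against 340782 to 361061 in wild-type libraries, with replicate 2 of the knockout lowest and replicate 3 highest of all. Of 17 costimulation and checkpoint genes 3 fell. Cd86, a ligand of CD28, had 1059, 1016 and 946 in knockout libraries, against 1501, 1427 and 1593 in wild-type libraries (-0.58 ± 0.12, adjusted p = 0.0431). Tnfsf4, the OX40 ligand, had 129.7, 99.5 and 106 in knockout libraries, against 252, 247 and 284 in wild-type libraries (-1.22 ± 0.17, adjusted p = 0.0101). Pdcd1, the gene of PD-1 itself and a T cell gene, had 5.32, 5.07 and 3.45 in knockout libraries, against 33.2, 28.9 and 53.2 in wild-type libraries (-2.78 ± 0.35, adjusted p = 0.00744). H2-Oa did not pass without any 1 of the wild-type libraries or without knockout replicate 1, and at most 1 costimulation gene passed without any 1 of the wild-type libraries.

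Far fewer genes held on the higher side. Car6, a secreted carbonic anhydrase, had 153, 113 and 170.1 in knockout libraries, against 1.79, 6.43 and 1.77 in wild-type libraries, where it rests on a few reads (5.22 ± 0.46, adjusted p = 0.00229). Ch25h, which makes the immune oxysterol 25-hydroxycholesterol (chromosome 19, bases 34473778 to 34475164), had 2097, 1278 and 3323 in knockout libraries, against 223, 169 and 226 in wild-type libraries (3.34 ± 0.35, adjusted p = 0.00416). Rbp4, the carrier of retinol in blood, had 17958, 10646 and 22884 in knockout libraries, against 2356, 2288 and 2191 in wild-type libraries (2.84 ± 0.28, adjusted p = 0.00325). By group means these were 43.6-fold, 10.8-fold and 7.53-fold higher in knockout cells, and each knockout library was several times above every wild-type one. Xcr1, the chemokine receptor that marks type 1 conventional dendritic cells (chromosome 9, bases 123852315 to 123862029, within 5 megabases of Myd88), had 98.9, 92.4 and 88.5 in knockout libraries, against 18.8, 10.4 and 16.0 in wild-type libraries (2.59 ± 0.27, adjusted p = 0.00378). In limma and edgeR no other of 14 markers of that subset rose, while 3 of the 14 were higher in DESeq2, with the trend removed, without knockout replicate 2 and at an unadjusted p below 0.05. In limma Tlr11, Cd8a and Itgae (-3.06 ± 0.23, adjusted p = 0.00155) fell. Cd8a and Itgae are shared with T cells.

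The other genes of the 15 with the widest upward gap have varied known roles. Mmp13, a collagenase, had 7663, 8174 and 8488 in knockout libraries, against 2536, 2664 and 2782 in wild-type libraries (1.61 ± 0.12, adjusted p = 0.00141), and its knockout libraries were the closest together among these 15. Htra1, a secreted serine protease, was 4.23-fold higher (2.05 ± 0.23, adjusted p = 0.00496) and the matrix protein gene Matn2 7.03-fold (2.75 ± 0.28, adjusted p = 0.00346). Pmp22, a membrane protein of myelin, was 6.01-fold higher (2.54 ± 0.24, adjusted p = 0.00260). Elovl3, a fatty acid elongase, Awat1, a wax ester synthase, and the protease gene Capn11 were 5.21-fold, 7.73-fold and 12.2-fold higher, all at low levels. Fam20a (2.75 ± 0.32), Sh2d6 (2.86 ± 0.28) and Bex1 (2.68 ± 0.53) complete the list. Fosb and Fos, which each encode a possible subunit of the AP-1 transcription factor, were the 2 of 17 immediate early and stress genes that rose in limma. None of the 17 fell there, and 1.38% of all genes tested rose. Of the 17, 5 were higher and 1 lower in DESeq2 and at an unadjusted p below 0.05, and 1 was lower with the trend removed. Without any 1 of the wild-type libraries or without knockout replicate 1, 1 rose, and without knockout replicate 2, 7 rose and 1 fell. Fosb had 7209, 8887 and 6009 in knockout libraries, against 1912, 1896 and 1656 in wild-type libraries (2.00 ± 0.17, adjusted p = 0.00229), and Fos had 16262, 16108 and 10792 in knockout libraries, against 5867, 5661 and 5697 in wild-type libraries (1.30 ± 0.19, adjusted p = 0.0125).

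Of 17 genes typical of GM-CSF culture and lung-type myeloid cells, 4 rose and none fell in limma (3 and none in edgeR, 10 and none in DESeq2 and at an unadjusted p below 0.05), with a median of 0.72. Spp1, the secreted protein osteopontin, had 83010.0, 51745 and 72913 in knockout libraries, against 29749, 29041 and 30349.9 in wild-type libraries (1.19 ± 0.22, adjusted p = 0.0261). Ctsk, a lysosomal protease, had 4219, 3358 and 4055 in knockout libraries, against 1705, 1645 and 1613 in wild-type libraries (1.22 ± 0.13, adjusted p = 0.00438). Plin2, which coats lipid droplets (0.78 ± 0.14, adjusted p = 0.0266), and Atp6v0d2, a subunit of the lysosomal proton pump (0.70 ± 0.15, adjusted p = 0.0444), rose by less than 2-fold. The list summed to 2359716 to 3409770.0 in knockout libraries, against 1485849 to 1560794 in wild-type libraries, with no overlap. Chil4, a relative of Chil3, was the only alternative activation gene of 16 that passed in limma (1.501 ± 0.19, adjusted p = 0.00685), where 1.38% of all genes tested rose. None of the 16 passed without wild-type replicate 1 or 2, while 7 rose and 1 fell without knockout replicate 2, 3 rose and 1 fell with the trend removed, and 4 were higher in DESeq2. Of the 17 GM-CSF genes, 1 passed without any 1 of the wild-type libraries or without knockout replicate 1, and without knockout replicate 2, 14 did.

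Some gene groups differed widely among the knockout libraries. The 28 cytosolic ribosomal protein genes had a median difference of 0.78 (0.51 with the length and GC trend removed), yet none passed in limma or edgeR, none had an unadjusted p below 0.05, and DESeq2 called 5 higher. Without knockout replicate 2 all 28 rose. Their sum was 1519766, 715990.0 and 2698184 in knockout libraries, against 764509.8 to 846222 in wild-type libraries. Replicate 2 was thus below every wild-type library, and replicates 1 and 3 were above. Ribosomal protein genes have short transcripts, which as a class were also high in replicates 1 and 3. The 20 respiratory chain genes had a median of 0.56 (0.35 with the trend removed), with none past limma, edgeR, DESeq2 or an unadjusted p of 0.05. With the trend removed 1 of them rose, and without knockout replicate 2, 15 did. Tlr8, a sensor of single-stranded RNA, was 1 of the 6 genes with the widest range among knockout libraries and a mean of at least 50. It had 202, 1409.7 and 13.8 in knockout libraries, against 1183, 1491 and 1761 in wild-type libraries, so replicates 1 and 3 were below the wild-type range, replicate 3 by far, and replicate 2 was inside it (-3.17 ± 1.52, adjusted p = 0.233). None of 28 cell cycle genes passed in limma or edgeR, with 2 higher and 3 lower at an unadjusted p below 0.05 and 1 higher in DESeq2. Without knockout replicate 2, 7 of them rose and 11 fell.

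**Figure D4:**
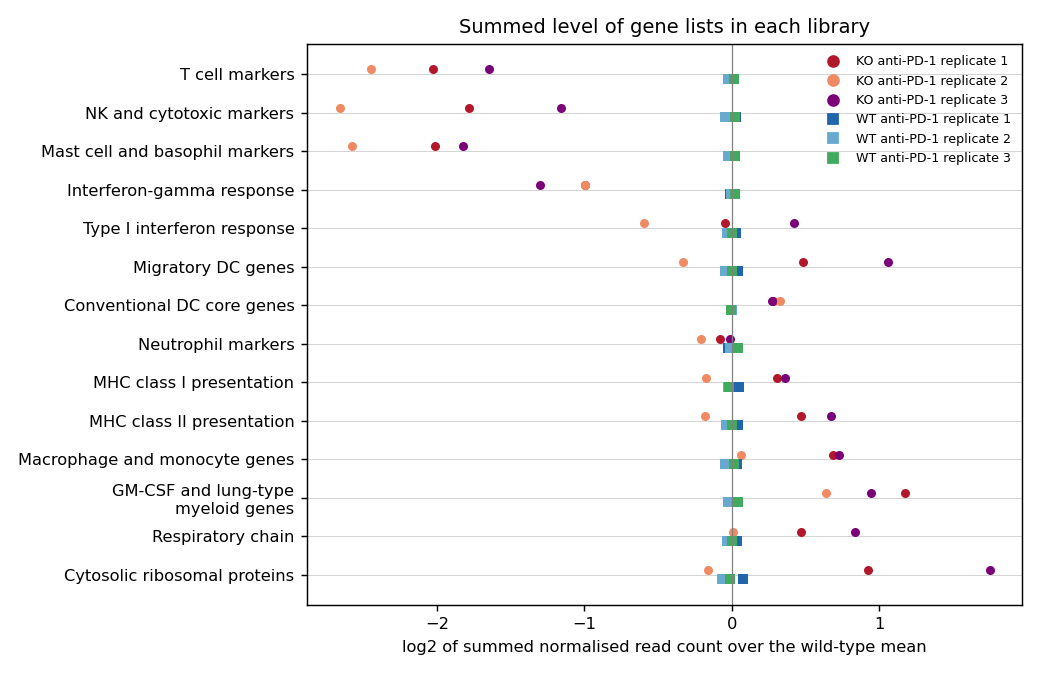
Log2 of the summed normalised read count of each gene list over its wild-type mean, for 3 knockout libraries (circles) and 3 wild-type libraries (squares). The T cell, NK and mast cell lists and the interferon-gamma list lie left of all wild-type libraries in each knockout library, while the ribosomal, migratory dendritic cell and type I interferon sums spread to both sides.

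The knockout was also compared with wild type under control IgG, in 6 other libraries, so the comparisons share none. Under IgG, 4042 of 12400 genes (32.6%) were higher and 3754 (30.3%) lower in knockout cells, in libraries that spread far less. Across 12323 genes the differences under anti-PD-1 and under IgG correlated with r = 0.84, where genes are not independent replicates and share the same transcript length and base composition. Of the 431 genes that held lower in each knockout anti-PD-1 library, 428 were tested under IgG, and 426 of these fell there too. The 2-fold rule was met in both by 417 genes, 96.8% of the anti-PD-1 list and 49.4% of the IgG list, which itself is 6.81% of the genes tested. Of the 50 that held higher, 36 met it in both, 72% of the anti-PD-1 list and 24.3% of the IgG list, itself 1.19% of the genes tested. Across all 4 treatments of the study, LGG and the combination included, 22 genes held higher and 284 lower in every knockout library, where with LGG 6.7% of all genes held higher and 9.28% lower and with the combination 8.59% and 12.2%. LGG stands for live bacteria given by mouth. Xcr1 was 1 of the genes that held under anti-PD-1 but not with LGG. It was higher in knockout cells by 2.59 under anti-PD-1 and 2.57 ± 0.21 under IgG, but differed by -0.81 with LGG and -0.59 with LGG and anti-PD-1.

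Whether the genotype difference itself changed with the antibody was tested as a difference of differences over 12 libraries. At an adjusted p below 0.05, 1 of 12417 genes passed (0.00805%, limma), and 1346 had an unadjusted p below 0.05. edgeR called 3 genes and DESeq2 294. The gene was Serpinb9b, an inhibitor of serine proteases in a family that blocks granzymes. Serpinb9b had 111, 83.2 and 65.5 in knockout anti-PD-1 libraries, against 114, 104 and 91.4 in wild-type anti-PD-1 libraries, and 415 to 461 in knockout IgG libraries, against 103 to 118 in wild-type IgG libraries. Only the knockout IgG libraries were high, and the difference of differences was -2.24 ± 0.25 (SE, adjusted p = 0.0335). It no longer passed without any 1 of the 9 libraries outside the knockout anti-PD-1 group, where the adjusted p was 0.0934 to 0.197. Several T cell genes had a smaller genotype gap under anti-PD-1 without passing. Cd8a differed by -2.91 under anti-PD-1 and -3.90 ± 0.07 under IgG, a change of 0.99 ± 0.14 (adjusted p = 0.0655). The T cell list as a whole summed to 3221 to 5593 in knockout and 17233 to 17685 in wild-type libraries under anti-PD-1, and to 3046 to 3389 in knockout and 22804 to 24437 in wild-type libraries under IgG. Nr4a1, an immediate early gene of activated lymphocytes, differed by 0.22 ± 0.15 under anti-PD-1 and -1.06 ± 0.11 under IgG, a change of 1.28 ± 0.16 (adjusted p = 0.0508). The interferon-gamma list had a median of -1.36 under anti-PD-1 and -1.34 under IgG.

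**Figure D5:**
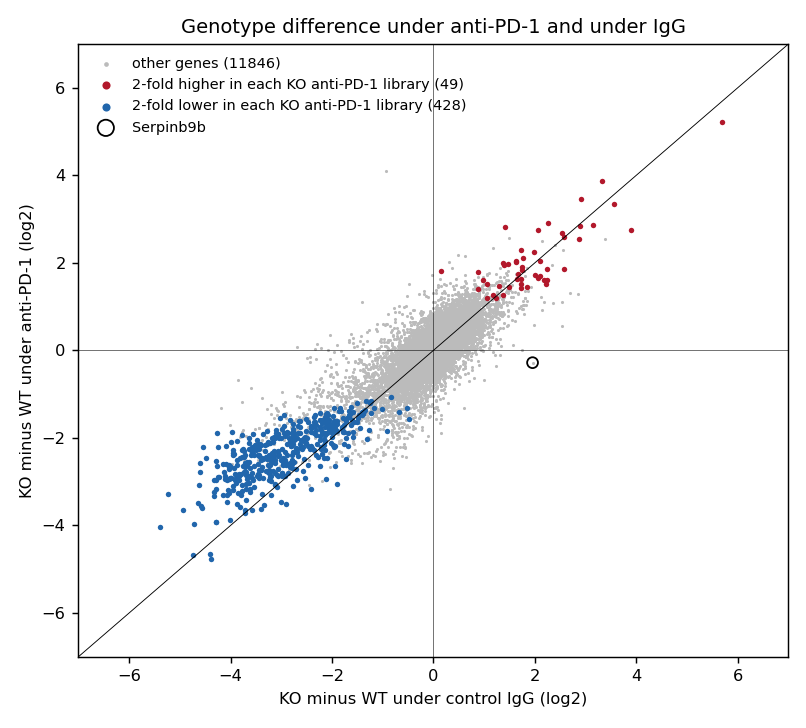
Each point is a gene, placed by its log2 difference between knockout and wild type under IgG (horizontal) and under anti-PD-1 (vertical), with a line at equal values. Genes that held in every knockout anti-PD-1 library (red and blue) lie on the same side of 0 in both, and Serpinb9b (circle) is at 1.95 under IgG and -0.28 under anti-PD-1.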

How the data were processed

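The submitters' processing notes name STAR 2.4.0, build mm10, HTSeq 0.6.1 and DESeq2, the last without a version. The deposited table holds 12767 genes in 24 libraries as a normalised signal, gene counts divided by a size factor per library, and the lowest gene mean in it is 9.57. Values divided by each library's step came out whole within 0.001 for 100% of them, which recovers the counts of the authors for edgeR and DESeq2. Strand was not stated, so antisense overlaps cannot be told apart.

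The test was limma 3.58.1 (R 4.3.3, mean-variance trend, robust) on log2(value + 1), two-sided, over the 6 anti-PD-1 libraries, for genes with a mean of at least 10, with Benjamini and Hochberg adjustment and a threshold of 0.05. Log2 differences are on that scale, which understates changes of low genes, and errors are SE with 3 libraries in each group. The IgG libraries were added for the difference of differences. Library groups came from the labels. Same-numbered libraries correlated in their deviations at 0.16, 0.17 and -0.17, so the numbers were not taken as pairs.

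By rule, the named genes were the 15 with the widest gap in each direction and a mean of at least 50 in the higher group, the 6 with the widest knockout range, the 4 with the smallest p of each list, a set of fixed genes and the 6 with the smallest p for the difference. Irgm1, Igtp and Irf1 were added after their values were seen, and genes mentioned only as members of a list carry no value. The comparison, its genes and the lists were chosen with earlier results of these data known. Settings were compared with a pseudocount of 8, no filter, TMM, all 24 libraries, a replicate block, edgeR 4.0.16, DESeq2 1.42.0, array weights, single libraries left out, and 1 knockout library at a time. Removal of the length and GC trend was added after the data were seen. Gene positions and lengths come from an annotation of GRCm38, and 9807 of 12401 tested genes matched a RefSeq promoter by symbol. Libraries of LGG and of the combination were used only for the values named. The tests were tried on simulated data.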

Additional observations from a re-analysis of the deposited data

Results flagged for a closer look

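Serpinb9b is listed because its genotype difference under anti-PD-1 differed from that under IgG in a test of the difference itself. The difference of differences was -2.24 ± 0.25 on the log2 scale (SE, limma, adjusted p = 0.0335, 12 libraries). Knockout cells had 65.5 to 111 under anti-PD-1, against 91.4 to 114 in wild-type cells, and 415 to 461 under IgG, against 103 to 118 in wild-type cells. Close relatives of this gene exist in the mouse, so its counts are uncertain where reads could be split between them. Groups of 3 libraries are too small for the test of single outlying libraries.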

How the results depend on the processing

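The 788 genes past the test became 873 with a pseudocount of 8, 794 without a filter, 814 with TMM and 813 in edgeR. They became 5787 with all 24 libraries in the fit (3071 higher, 2716 lower), 2021 in DESeq2 (924 higher, 1097 lower), 8555 with array weights and 1742 with the length and GC trend removed (933 higher, 809 lower). With the replicate block 415 passed (51 higher, 364 lower). The count ranged from 231 to 6839 over single libraries left out, lowest without wild-type replicate 3 and highest without knockout replicate 2. With only knockout replicate 1, 2 or 3 it was 7981, 3295 and 9285, where the lone library is assumed to vary like the wild-type ones. Genes past the test whose libraries do not overlap numbered 788, and 3818 with all 24 libraries, 1941 in DESeq2, 3829 with array weights, and 231 to 6839 over single libraries left out. The 2-fold rule met by 481 genes was met by 1581, 840 and 3414 with only knockout replicate 1, 2 or 3, and by 510 to 1272 with a library left out. The 1 gene for the difference of differences became 4 with TMM, 233 with all 24 libraries, 0 with the replicate block, 3 in edgeR, 294 in DESeq2, 4931 with array weights and 43 with the trend removed, and 0 to 4422 over single libraries left out. Without knockout anti-PD-1 replicates 1, 2 and 3 it was 39, 4422 and 24. For Serpinb9b, which had not passed between the genotypes under anti-PD-1, the difference became 0.066 with array weights and 0.10 with only knockout replicate 1. The causes of these changes were not tested.

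Of 94 named genes past the test, all kept their direction over 18 other settings, and 1520 of their results kept the call while 172 lost it. Most losses came without wild-type replicate 1, 2 or 3 (39, 40 and 38), without knockout replicate 1 (29) and with the replicate block (21). The rest were 1 each for TMM, edgeR and knockout replicate 3 left out, and 2 with the trend removed. The replicate numbers were not taken as pairs, on weak correlations of deviations alone (0.16, 0.17 and -0.17 for the same number). Libraries of different numbers correlated from -0.34 to 0.28. Whether a call lost under the block reflects a weaker effect was not tested. Depth limits Car6, Capn11, Awat1, Sucnr1, Apol7e, Il12b and Pdcd1, each with a mean below 10 in 1 genotype.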

Other observations

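Of 17 glycolysis genes, Slc2a1, the glucose transporter GLUT1, rose, with 5526, 5663 and 5197 in knockout libraries, against 3741, 3630.4 and 3693 in wild-type libraries (0.57 ± 0.11, adjusted p = 0.0328, limma). Of the same 17, 6 were higher with the length and GC trend removed and in DESeq2, which also had 1 lower, and without knockout replicate 2, 10 rose and 3 fell. Of 12 AP-1 and MAF factors, Maf fell (-0.98 ± 0.16, adjusted p = 0.0165). Over all genes tested 1.38% rose and 4.98% fell in limma, and single genes of the short lists in this paragraph stand beside those shares. Of 9 B cell genes, Blnk rose (1.11 ± 0.23, adjusted p = 0.0397) while Ighm and Spib fell. Among 19 macrophage and monocyte genes Cd14 was the 1 that passed, and the median log2 difference was -0.09. The list summed to 366469 to 580690.3 in knockout libraries, against 339242 to 358398 in wild-type libraries. Lyz2 weighs most in that sum, with 220040.3 to 365597 in knockout libraries, against 175431 to 183535 in wild-type libraries. Of 6 epithelial and stromal genes Pdpn, which macrophages and lymph node stroma also express, rose (1.03 ± 0.17, adjusted p = 0.0165). Without any 1 of the wild-type libraries or without knockout replicate 1, no gene of these 5 lists passed. Without knockout replicate 2, 1 of the AP-1 and MAF factors rose and 6 fell, and of the macrophage and monocyte genes 6 rose and 5 fell. Of 25 chemokine and receptor genes Cxcl1, Cxcl2 and Xcr1 rose and Cxcl10 fell, and of 18 cholesterol genes Ch25h rose. Both erythroid genes tested did not pass in limma, edgeR, DESeq2 or at an unadjusted p below 0.05. Of 13 markers of type 2 conventional dendritic cells 2 fell in limma, Tbx21 and Il1rl1, which lymphocytes or mast cells also express, and none rose, while DESeq2 and an unadjusted p below 0.05 each gave 2 higher. The median log2 difference of the 13 was -0.38. Their sum, in which abundant genes such as Sirpa weigh more, was higher in every knockout library, at 102733 to 123512, against 91401 to 93582 in wild-type libraries. Sirpa, a surface receptor of that subset and of macrophages, had 27608, 25805 and 37701 in knockout libraries, against 19752, 19736 and 19764 in wild-type libraries, without passing (adjusted p = 0.129). Of 8 plasmacytoid markers 2 fell in limma, Pacsin1 and Ptprcap, and none rose. DESeq2 gave 1 higher and 4 lower, and removal of the trend 1 higher and 2 lower. Cox6a2 of that list had 3001, 1326 and 5128 in knockout libraries, against 855, 701 and 794 in wild-type libraries, without passing (1.81 ± 0.47, adjusted p = 0.0814). The list summed to 7225 to 20570 in knockout libraries, against 10629 to 11463 in wild-type libraries.

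Within 5 megabases of Myd88, a window chosen after the data were seen, 80 genes were tested, of which 3 rose and 8 fell. Over all genes tested 1.38% rose and 4.98% fell, and whether the window differs from that was not tested. Xcr1, which rose, and Eomes, which fell, lie in that window. On a first principal component with 64.3% of the variance over all 24 libraries, the knockout anti-PD-1 libraries lay at -74.2, -61.9 and -66.1, against -18.1, -17.5 and -17.4 in wild type. On the next, with 14.6%, they lay at 25.1, -16.5 and 51.3, against -45.5, -51.3 and -53.0 in wild type.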
